A study of Schizosaccharomyces pombe with 4 samples.

Results

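Nuclear tRNA cDNAs were examined in a CRAC experiment on Mkt1 in fission yeast (Schizosaccharomyces pombe), as the intervals that lie on chromosomes I to III and that the files name for a tRNA gene with an amino acid code. They numbered 2786 of the 61252 intervals in 4 libraries, and came from 154 of the 171 annotated nuclear tRNA genes and from 19 of the 20 amino acid families. In CRAC, UV light links proteins to RNA in intact cells, the tagged protein is pulled out with stringent washing, and the RNA that stays attached to it is read as cDNA. The tagged strain (Mkt1-HTP, 2 libraries) was h+ with the mkt1-HTP-KanR allele, and the untagged strain (control, 2 libraries) lacked that allele. The paper's strain list gives the untagged strain of its CRAC figure as h+ too. Both strains also carried otr1R(Sph1):ade6+ with ade6-210, leu1-32 and ura4D18, grew at 32 °C in PMG medium lacking tryptophan, and received UV light for 42.5 s. Mkt1 is a post-transcriptional regulator, HTP is a tag of histidines, a protease site and protein A, and the control gives the background of the purification. Reads from tRNA were filtered out by the authors before mapping, so these intervals are what passed that filter and not the amount of tRNA in the purification, and which tRNAs the filter held back most was not tested.

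Transfer RNAs pair a codon in the ribosome with its amino acid. Each folds into an acceptor stem that carries the amino acid at its 3′ end, a D arm, an anticodon arm whose loop reads the codon, a variable loop and a T arm. RNA polymerase III makes them as precursors with a 5′ leader and a 3′ trailer, which are cut off, and CCA is then added to the 3′ end. Some precursors also hold an intron next to the anticodon, which a dedicated endonuclease removes, and the pieces are joined by the tRNA ligase Trl1. Mature tRNAs carry many modified bases, and these, like a base cross-linked to a protein, can stop reverse transcriptase or make it skip a base. A cDNA that stops early covers only the 3′ side of the RNA, and a skipped base appears as a deletion in the alignment. Whether early stops gave rise to the cDNA starts described below was not tested.

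Positions are given in the standard tRNA numbering, in which the anticodon starts at base 34, the anticodon loop spans 32 to 38, the T loop spans 54 to 60, and the last encoded base is 73. The 171 genes held 63 distinct mature sequences of 71 to 86 nt, and 140 genes were identical in mature sequence to at least 1 other gene, so that a cDNA within the mature tRNA cannot be told apart from one of such a copy. Introns and flanks can differ between copies. The sequences in which most deletions fell are shown because the positions below refer to them. They are stretches of 30 bases read in tRNA sense from the RefSeq chromosomes, which are the same in ASM294v2 and ASM294v3. Capitals mark bases deleted in at least 10 Mkt1-HTP cDNAs of that tRNA sequence, with its copies pooled, or else the base deleted most often.
Glu CTC, SPATRNAGLU.03, I:3765459-3765488, minus strand, 6 copies: gctaggattcatcgCTcTCaccgatgcggc
Asp GTC, SPATRNAASP.01, I:4532873-4532902, plus strand, 8 copies: ggtagtacacaagcCTgtcacgcttgcagc
His GTG, SPBTRNAHIS.01, II:464255-464284, plus strand, 4 copies: gttaagactcatcGTTGtggccgatgcgac
Gly CCC, SPBTRNAGLY.09, II:2069502-2069531, plus strand, 1 copy: cggtaacattggagcTtcccatgctctagc
Gly GCC, SPATRNAGLY.01, I:1646317-1646346, minus strand, 8 copies: ggtataatgaatcgtTgccatcgattcgac
Ser AGA, SPATRNASER.02, I:3047696-3047725, minus strand, 7 copies: agaaatctgttgcggTctccgcgcgcaggt
Asn GTT, SPBTRNAASN.01, II:1597999-1598028, minus strand, 5 copies: gtgaggtcgagggttCgagtccctccctga

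The 4 libraries differed greatly in size, with 24468 and 26899 distinct cDNAs in Mkt1-HTP replicates 1 and 2 against 1743 and 8142 in the control. Nuclear tRNA accounted for 1225 and 1308 of them in Mkt1-HTP and for 28 and 225 in the control, so every share of tRNA cDNAs in control replicate 1 rests on 28 cDNAs. Identical intervals were shared between libraries: 12 of 28 intervals of control replicate 1 recurred in Mkt1-HTP replicate 1 and 8 in Mkt1-HTP replicate 2, and of the 222 of control replicate 2, 52 and 70 recurred in them. Intervals in brackets below are 95% Wilson intervals, which cover counting error only.

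As a share of all cDNAs, tRNA was higher in both Mkt1-HTP libraries than in both control libraries. It made up 5.01% (4.74 to 5.29) and 4.86% (4.61 to 5.13) of Mkt1-HTP replicates 1 and 2, and 1.61% (1.11 to 2.31) and 2.76% (2.43 to 3.14) of the control. The mean was 4.93% ± 0.102 (SD, n = 2) against 2.18% ± 0.818 (SD, n = 2), a difference of 2.75 percentage points with an exact two-sided permutation p of 0.333, the smallest that 2 libraries against 2 can give. With near-identical intervals counted once the difference was 0.57 points, and with the same fragment in identical gene copies counted once it was 1.56 points.

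Outside rRNA the order was the opposite. Of the cDNAs not on rRNA, tRNA made up 7.62% (7.22 to 8.04) and 8.83% (8.39 to 9.30) in Mkt1-HTP, and 9.27% (6.49 to 13.1) and 19.5% (17.4 to 21.9) in the control. The lower control value lay within counting error of the Mkt1-HTP values, and the difference of means was -6.18 points (exact permutation p = 0.333). It was -1.05 points without control replicate 2 and -11.3 without control replicate 1. Whether tRNA was higher or lower with the tag thus depended on the denominator, since rRNA took 1441 of 1743 and 6991 of 8142 cDNAs in the control libraries.

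Threonine tRNA was the family with the most cDNAs in the control and in the data as a whole. It held 189 and 205 cDNAs in Mkt1-HTP and 20 and 48 without the tag, which is 7724 and 7621 CPM (cDNAs per 1000000 distinct cDNAs) against 11474 and 5895 CPM, so the groups overlapped. Glutamate tRNA held 180 and 173 cDNAs against 1 and 21. Aspartate tRNA held 267 and 132 against 0 and 37, and was the largest family of Mkt1-HTP replicate 1. Asparagine tRNA held 135 and 161 against 0 and 7, and glycine tRNA 98 and 93 against 0 and 2. In these last 4 families both Mkt1-HTP libraries stood above both control libraries in CPM, as they did in 52.8% of all 373 features tested. For aspartate the nearest values were 4907 and 4544 CPM.

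The middle of the order was less even between replicates. Arginine tRNA held 91 and 95 cDNAs against 1 and 12, lysine 37 and 27 against 0 and 2, valine 24 and 24 against 0 and 6, and glutamine 59 and 41 against 6 and 7. Methionine tRNA, which has an initiator and an elongator form, held 67 and 15 against 0 and 3. Serine tRNA held 35 and 146 against 0 and 24, and histidine tRNA 21 and 119 against 0 and 16. Serine and histidine were therefore higher in Mkt1-HTP replicate 2 than in replicate 1, while aspartate and methionine were highest in Mkt1-HTP replicate 1. The control replicates cannot be ordered for serine and histidine. A count of 0 in control replicate 1 allows a share of up to 10.7%, against 10.7% and 7.11% in control replicate 2. The 2 Mkt1-HTP libraries differed over 18 families by a chi-square of 15.1 per degree of freedom, far beyond counting noise, and the 2 control libraries by 3.60 over 17.

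Few cDNAs came from the remaining families. Isoleucine tRNA held 3 and 25 cDNAs in Mkt1-HTP against 0 and 13, leucine 7 and 14 against 0 and 19, alanine 8 and 17 against 0 and 5, and proline 4 and 13 against none. Phenylalanine held 0 and 4 against 0 and 1, tryptophan 0 and 4 against none, and tyrosine none against 0 and 2. Cysteine tRNA, with 3 genes, was the family without a cDNA in any library. A count of 0 allows a share of up to 0.245% and 0.229% of the tRNA cDNAs of Mkt1-HTP replicates 1 and 2, and of 10.7% and 1.33% in the control.

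**Figure D1:**
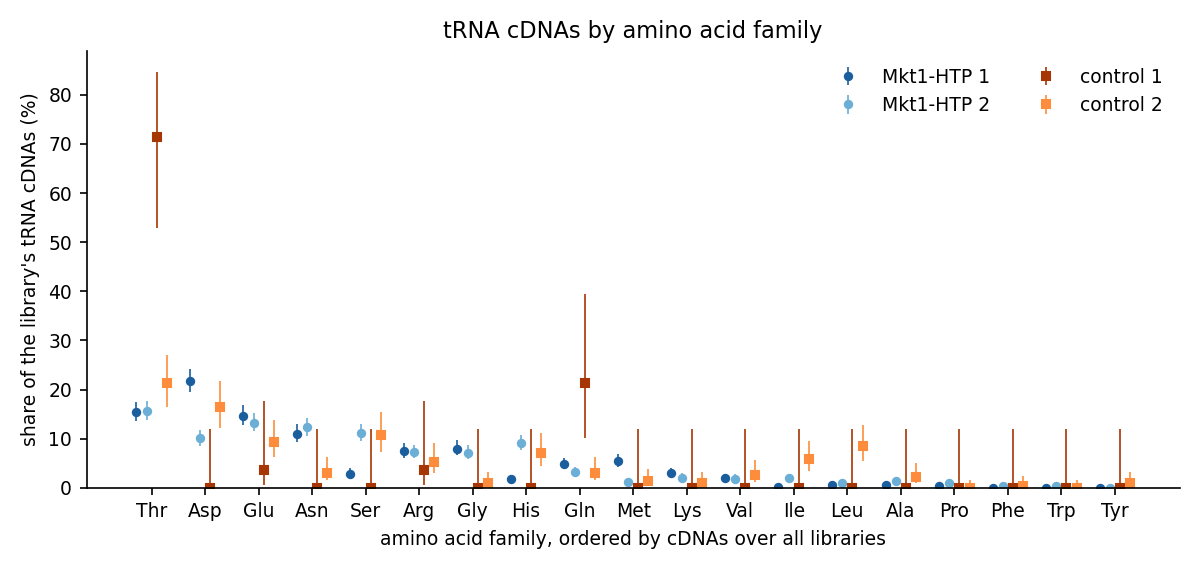
Share of each library's tRNA cDNAs (y axis, percent, from 0) in each amino acid family (x axis), for Mkt1-HTP replicates 1 and 2 (circles) and control replicates 1 and 2 (squares), with 95% Wilson intervals as bars. Thr held 71.4% of the 28 tRNA cDNAs of control replicate 1 and 21.3% of those of control replicate 2, against 15.4% and 15.7% in Mkt1-HTP, while Ser and His were higher in Mkt1-HTP replicate 2 than in replicate 1.

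No family passed the test between groups. edgeR's quasi-likelihood test was fitted to all 373 features with at least 10 cDNAs, with tRNA genes summed by amino acid and the number of all distinct cDNAs as library size. At a Benjamini-Hochberg adjusted p of 0.05 it called 0 of the 16 families tested, where 2.68% of all features were called higher with the tag and 1.61% lower. At an unadjusted p of 0.05 it called 2 families, asparagine and glycine, both higher in Mkt1-HTP, where 9.65% of all features were called in that direction and 1.88% in the other. DESeq2 called 0 of 16, against 1.07% of all features higher in Mkt1-HTP. In 9 of the 16 families both Mkt1-HTP libraries were above both control libraries in CPM, close to the 52.8% of all features for which this held.

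The sizes of the differences were imprecise. Glycine tRNA had a log2 fold change of 4.30 (SE 1.70, edgeR adjusted p = 0.200), and asparagine tRNA 3.30 (SE 1.35, adjusted p = 0.242). For glutamate the log2 fold change was 1.96 (SE 1.12, adjusted p = 0.412) and for aspartate 1.59 (SE 1.03, adjusted p = 0.469). Threonine tRNA stood near 0, at -0.15 (SE 0.88, adjusted p = 0.925), and leucine tRNA at -1.74 (SE 1.50, adjusted p = 0.477). The median over the 16 families was 1.37 on the log2 scale, beside 4.81 over all 373 features, of which 232 had no control cDNA. Without control replicate 1, edgeR called 3 families at the adjusted p of 0.05, glycine and asparagine as higher in Mkt1-HTP and leucine as lower (-2.51), where 8.97% of all features (33 of 368) were called. Without control replicate 2 it called 6, asparagine, aspartate, glutamate, glycine, histidine and serine, where 6.44% (23 of 357) were called. With near-identical intervals counted once it called glycine alone, where 13% (18 of 138) were called. Scaled to the cDNAs outside rRNA, 5 families in place of 12 were higher in Mkt1-HTP, the median was -0.63, and the values for aspartate and glutamate fell below 0, to -0.47 and -0.038.

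**Figure D2:**
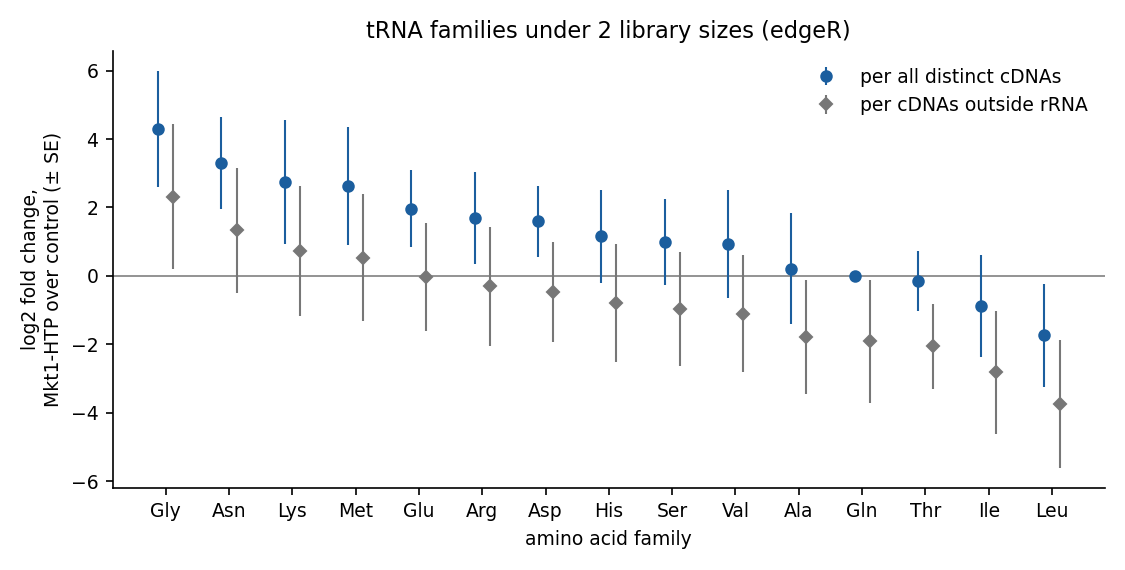
edgeR log2 fold change of Mkt1-HTP over control (y axis, ± SE) for the 15 tested families with a control cDNA (x axis), scaled to all distinct cDNAs (circles) or to cDNAs outside rRNA (diamonds). Every family was lower under the second scaling, and the order from Gly at 4.30 to Leu at -1.74 stayed the same; Gln has no bar for the first scaling because its value is too near 0 to give an SE.

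In the groups with the most cDNAs, genes of identical mature sequence held like numbers. The 8 identical Asp GTC genes together held 436 cDNAs, with 44 to 63 per gene. The 6 Glu CTC genes held 344 (51 to 67 per gene), the 6 identical Thr AGT genes 332 (51 to 60) and the 5 identical Asn GTT genes 259 (40 to 59). Smaller groups were less even, with 0 to 19 per gene for the 8 identical Lys CTT genes, which held 30 cDNAs, and 11 to 41 for the 3 copies of the Met CAT gene SPATRNAMET.02, which held 74. After fragments with the same ends in identical copies were merged, 759 and 842 distinct fragments were left in Mkt1-HTP, 62.0% and 64.4% of the tRNA cDNAs, and 22 and 159 in the control, 78.6% and 70.7%.

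By mean CPM over the 4 libraries, the 6 highest genes were the 6 identical Thr AGT genes, led by SPATRNATHR.05 at I:4715431-4715502 on the plus strand, with 24 and 26 cDNAs in Mkt1-HTP and 5 and 5 without the tag. The others were SPCTRNATHR.08, SPATRNATHR.01, SPCTRNATHR.09, SPBTRNATHR.07 and SPATRNATHR.02. Next came SPATRNAASP.01 (37 and 17 against 0 and 9) and SPBTRNAARG.05, the only Arg CCT gene, at II:1160893-1160994 on the minus strand (22 and 24 against 1 and 5). SPCTRNAGLU.09 (27 and 26 against 1 and 2) and SPCTRNAGLN.05 (14 and 11 against 3 and 1) completed the first 10. A single cDNA of control replicate 1 counts as 574 CPM, so this order leans on that library. Over both Mkt1-HTP libraries together, many genes held more cDNAs than SPATRNATHR.05, among them SPATRNAASP.01, SPATRNAGLU.03 (34 and 31) and SPBTRNAGLU.08 (34 and 26). The control libraries together held most cDNAs on SPATRNATHR.01 (4 and 7), followed by SPATRNATHR.02, SPATRNATHR.05 and SPCTRNATHR.08 with 10 each and SPATRNAASP.01 with 9. Fitted one by one, 69 tRNA genes were tested among 426 features. edgeR called 0 of them at the adjusted p of 0.05 (smallest 0.198), where 4.69% of all features were called, and 2 at an unadjusted p of 0.05, where 12.7% were.

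Anticodons of 1 family were recovered unequally. The Glu CTC anticodon, with 6 genes, held 168 and 165 cDNAs in Mkt1-HTP against 1 and 10 without the tag, whereas the 4 Glu TTC genes held 12 and 8 against 0 and 11. Ser AGA, with 7 genes, held 31 and 124 against 0 and 6, and Ser GCT, with 3 genes, 0 and 15 against 0 and 16. Both Arg TCT genes together held 59 and 46 against 0 and 7, while the 8 Arg ACG genes held 8 and 22 against none. The single Gly CCC gene held 11 and 30 cDNAs in Mkt1-HTP and none in the control.

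The tRNA genes of the centromeres stand among the repeats that border heterochromatin. The windows used for the centromeres held 34 tRNA genes, 30 of which had a cDNA, with 248 and 235 cDNAs in Mkt1-HTP and 7 and 49 without the tag. All 34 were identical in mature sequence to a gene outside the windows, so that cDNAs within the mature tRNA cannot be placed at a centromere.

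Most cDNAs covered the 3′ part of a tRNA. A cDNA was classed as a 3′ part when it ended within 10 nt of the last base and started past base 6 of the mature tRNA, and as a whole tRNA when it also started at or before that base. The 3′ part made up 59.6% (56.8 to 62.3) and 65.6% (63.0 to 68.1) of tRNA cDNAs in Mkt1-HTP, and 92.9% (77.4 to 98.0) and 59.1% (52.6 to 65.3) in the control. The groups overlapped. Whole tRNAs made up 28.8% (26.3 to 31.4) and 25.2% (22.9 to 27.6) in Mkt1-HTP, above the 3.57% (0.633 to 17.7) and 19.6% (14.9 to 25.2) of the control, a difference of 15.4 percentage points (exact permutation p = 0.333). Cover of the 5′ part alone was rare, at 6.78% and 4.66% against 0 of 28 and 5.78%. Internal pieces made up 1.14% and 1.91% in Mkt1-HTP and 9.78% in control replicate 2.

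The stretch covered varied widely between families. Of the threonine cDNAs, 188 of 189 and 187 of 205 in Mkt1-HTP and 20 of 20 and 48 of 48 in the control were 3′ parts. Asparagine cDNAs were 3′ parts in 119 of 135 and 144 of 161 cases in Mkt1-HTP. Aspartate cDNAs were whole tRNAs in 184 of 267 and 77 of 132 cases in Mkt1-HTP and 26 of 37 in control replicate 2. Glycine was whole in 48 of 98 and 43 of 93 cases. Histidine was whole in 0 of 21 cases in Mkt1-HTP replicate 1, in 70 of 119 in replicate 2 and in 11 of 16 in control replicate 2. With threonine left out, whole tRNAs made up 34.1% and 28.6% in Mkt1-HTP against 12.5% of 8 cDNAs and 24.9% of 177 in the control.

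**Figure D3:**
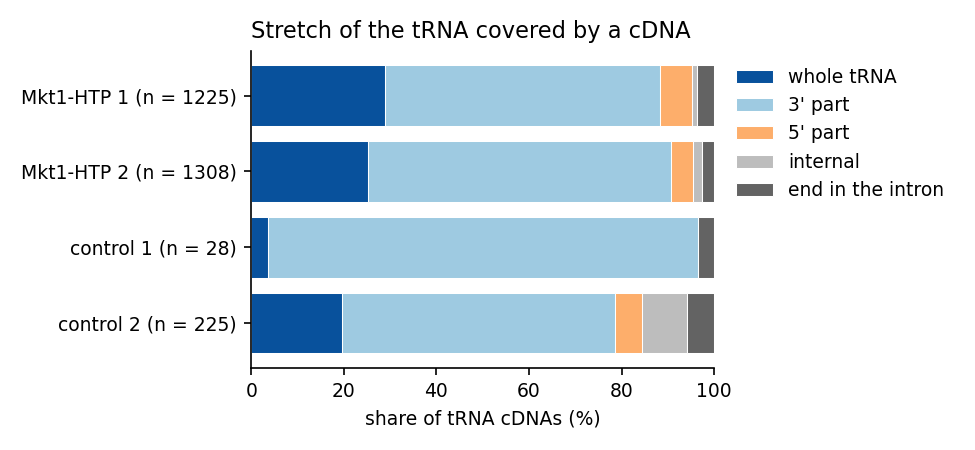
Share of tRNA cDNAs (x axis, percent) by the stretch of tRNA covered, in each of the 4 libraries with its number of tRNA cDNAs. In every library the 3′ part was the largest class, from 59.1% in control replicate 2 to 92.9% in control replicate 1, and whole tRNAs made up 28.8% and 25.2% in the Mkt1-HTP libraries.

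Most of these 3′ parts began in or just before the anticodon loop. Their median start was base 32 and base 33 in Mkt1-HTP and base 32.5 and base 34 in the control. Starts within the loop, bases 32 to 38, made up 49.2% (45.6 to 52.8) and 58.0% (54.7 to 61.3) in Mkt1-HTP, and 73.1% (53.9 to 86.3) and 57.1% in the control. Threonine 3′ parts began at a median of base 34 in both Mkt1-HTP libraries, and of 33.5 and 35 in the control. Asparagine 3′ parts began earlier, at a median of base 30 and base 31, and serine ones later, at base 36 in both Mkt1-HTP libraries. Glycine 3′ parts began earlier still, at a median of base 20 (n = 41) and base 28.5 (n = 32). The commonest start was base 33 in Mkt1-HTP replicate 1, with 96 cDNAs beside 93 at base 30, and base 36 in Mkt1-HTP replicate 2 and in control replicate 2, so the 2 libraries numbered 2 shared their peak. Starts before base 27, counted back from the anticodon, were found in every library, in 89 of 730 and 98 of 858 3′ parts in Mkt1-HTP (12.2% and 11.4%), and in 1 of 26 and 28 of 133 without the tag (3.85% and 21.1%), so the groups overlapped. The 13 isoleucine 3′ parts of control replicate 2 began at a median of base 17, against base 31 for the 21 of Mkt1-HTP replicate 2.

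**Figure D4:**
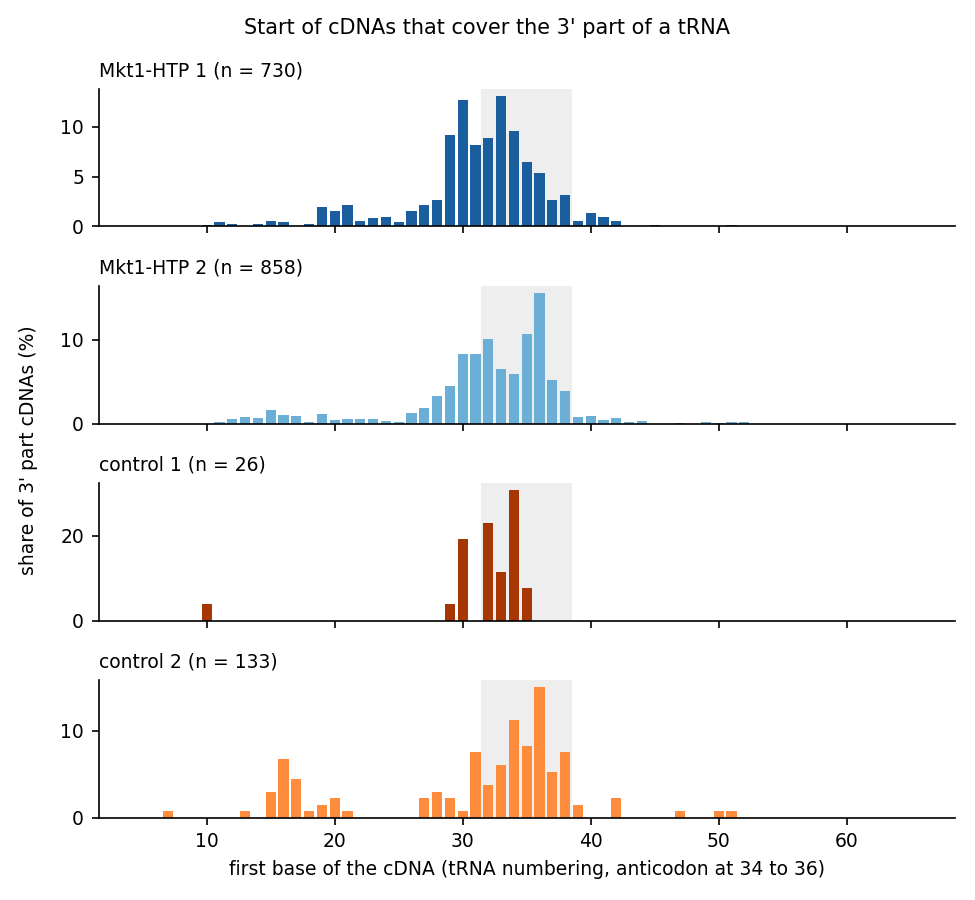
First base of the cDNAs that cover the 3′ part of a tRNA (x axis, tRNA numbering, anticodon loop shaded) as a share of these cDNAs in each library (y axis, percent, from 0, scaled per panel). Most of these cDNAs start between bases 29 and 38 in all 4 libraries, with medians from 32 to 34.

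The median interval length was the same in both Mkt1-HTP libraries, 44 nt, and 42 and 45 nt in the control, a difference of means of 0.5 nt (exact permutation p = 1). The middle quartiles ran from 39 to 66 nt and from 38 to 64 nt in Mkt1-HTP. Intervals on mRNA in the same libraries had medians of 52 and 50 nt in Mkt1-HTP and 49 and 52 nt in the control, and those on rRNA 62 and 58 nt against 43 and 56 nt. A whole tRNA of 71 to 86 nt limits the length of its cDNAs, and these differences between RNA classes were not tested.

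The 3′ ends clustered at the end of the mature tRNA. Within 2 nt of the last encoded base ended 71.8% (69.2 to 74.2) and 72.6% (70.1 to 74.9) of cDNAs in Mkt1-HTP, and 85.7% (68.5 to 94.3) and 68.4% (62.1 to 74.2) in the control. Ends 1 to 3 nt past the last base, within the length of the CCA addition, made up 18.4% and 17.0% against 32.1% and 24.0%. Few reached farther, 11 and 9 cDNAs in Mkt1-HTP and 0 and 2 without the tag. At the other end, 28 and 29 cDNAs in Mkt1-HTP and 0 and 10 without the tag started more than 3 nt before the first base. In all, 33.7% and 28.7% of cDNAs reached past either end of the annotated gene in Mkt1-HTP and 32.1% and 36% without the tag, a difference of -2.84 percentage points (exact permutation p = 0.667).

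Many histidine cDNAs began 1 nt before the annotated gene. In eukaryotes an enzyme adds a G in front of the first base of tRNA-His. Of the histidine cDNAs that began near the 5′ end, 54 of 74 in Mkt1-HTP replicate 2 and 11 of 11 in control replicate 2 started exactly 1 nt before the annotated gene, and 0 of 2 did in Mkt1-HTP replicate 1. Among aspartate cDNAs the same start was seen in 54 of 186, 17 of 80 and 6 of 28 cases in Mkt1-HTP replicates 1 and 2 and control replicate 2, and among glutamate cDNAs in 8 of 76, 5 of 57 and 0 of 5. The difference between families was not tested.

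Introns are annotated in 44 of the 171 genes and are 7 to 30 nt long. These genes gave 112 and 103 cDNAs in Mkt1-HTP and 1 and 44 without the tag. Intron bases were present in 42.9% (34.1 to 52.1) and 43.7% (34.5 to 53.3) of them in Mkt1-HTP, and in the 1 cDNA of control replicate 1 and 70.5% (55.8 to 81.8) of those of control replicate 2. The groups did not overlap, with a difference of -42.0 percentage points (exact permutation p = 0.333), and of -27.2 points without control replicate 1. Among the cDNAs that ran across an intron, the alignment skipped the whole of it in 24 of 27 and 22 of 32 cases in Mkt1-HTP, and in 3 of 21 in control replicate 2. It skipped only part of the intron in 3 and 9 cDNAs in Mkt1-HTP and in 7 in control replicate 2. A cDNA with any intron base left counts here as holding intron bases, so partly skipped introns are included in the shares above.

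The tRNAs behind these numbers differed between the groups. The Met CAT tRNA with a 7 nt intron gave 46 and 14 cDNAs in Mkt1-HTP and 3 in control replicate 2. Its intron was skipped in 23, 9 and 3 of them, so that none of the 3 control cDNAs held it. Ser GCT with an 11 nt intron gave none and 12 cDNAs in Mkt1-HTP and 11 in control replicate 2, and intron bases were present in 3 of the 12 and in 11 of the 11. Leu CAA with a 19 nt intron gave 3 cDNAs in each Mkt1-HTP library and 7 in control replicate 2. All 7 held intron bases, and all 7 also had a deletion. Lys CTT with an 8 nt intron held intron bases in 16 of 17 and 9 of 11 cDNAs in Mkt1-HTP and in both cDNAs of control replicate 2. Arg CCT, with the longest intron of 30 nt, held intron bases in 15 of 22 and 14 of 24 cDNAs in Mkt1-HTP, and in 1 of 1 and 3 of 5 in the control.

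Deletions were present in 10.7% (9.08 to 12.5) and 23.1% (20.9 to 25.4) of tRNA cDNAs in Mkt1-HTP, and in 3.57% (0.633 to 17.7) and 14.7% (10.6 to 19.9) in the control. The groups overlapped, with a difference of 7.77 percentage points (exact permutation p = 0.667). The share was higher in the library numbered 2 in both groups. The difference was 13.97 points without Mkt1-HTP replicate 1 and 1.57 points without Mkt1-HTP replicate 2, 2.22 and 13.3 points without control replicates 1 and 2, and 3.39 points with near-identical intervals counted once. Of the mRNA cDNAs in the same libraries, 13.5% and 24.9% had a deletion in Mkt1-HTP and 3.82% and 23.9% did in the control. Of the rRNA cDNAs, 13.8% and 28.2% did, against 13.5% and 29.2%. The tRNA share was thus the lowest of the 3 RNA classes in each library, a difference that was not tested. With the skipped introns not counted, 108 and 284 tRNA cDNAs with a deletion were left in Mkt1-HTP and 1 and 23 without the tag.

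In both Mkt1-HTP libraries the anticodon loop was the most frequent place. It held a deleted base in 61 of those 108 and 119 of those 284 cDNAs in Mkt1-HTP, and in 1 of 1 and 9 of 23 in the control. The T loop followed in Mkt1-HTP, with 21 and 81 cDNAs there and 0 and 3 without the tag. The variable region held a deleted base in 1 and 59 cDNAs in Mkt1-HTP and in 0 and 9 without the tag, so that in control replicate 2 it equalled the anticodon loop. Of all deleted bases, 50.9% and 39.7% were T in Mkt1-HTP and 42.9% in control replicate 2. The share of T among the bases covered is not given here, so these values do not show whether T was deleted more often than other bases. Base 33, a uridine in nearly all tRNAs that turns the anticodon loop, was deleted in 32 of 898 and 78 of 843 cDNAs over it in Mkt1-HTP, 3.56% (2.54 to 4.99) and 9.25% (7.48 to 11.4). In control replicate 2 it was deleted in 6 of 137, 4.38% (2.02 to 9.23), which overlaps both. Where base 32 is also a T, an aligner could place 1 missing T at either base.

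Base 56, a conserved cytidine in the T loop that pairs with the D loop in the folded tRNA, was deleted in 15 of 1134 and 65 of 1243 cDNAs over it in Mkt1-HTP, 1.32% (0.803 to 2.17) and 5.23% (4.12 to 6.61). It was deleted in 0 of 28 and 0 of 191 in the control, which allows up to 10.7% and 1.57%. The limit of control replicate 2 lies below the value of Mkt1-HTP replicate 2 and above that of replicate 1. The base lies in the capital C of the Asn GTT stretch above, where neither neighbour is a C, and it was deleted there in 4 of 108 and 19 of 141 cDNAs in Mkt1-HTP and 0 of 5 in control replicate 2. Asp GTC lacked it in 3 of 265 and 7 of 131 cDNAs against 0 of 36 in control replicate 2. Gly CCC lacked it in 0 of 11 and 9 of 27, with no control cDNA. Asparagine and glycine had few control cDNAs, so that the families behind the base differed between the groups.

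**Figure D5:**
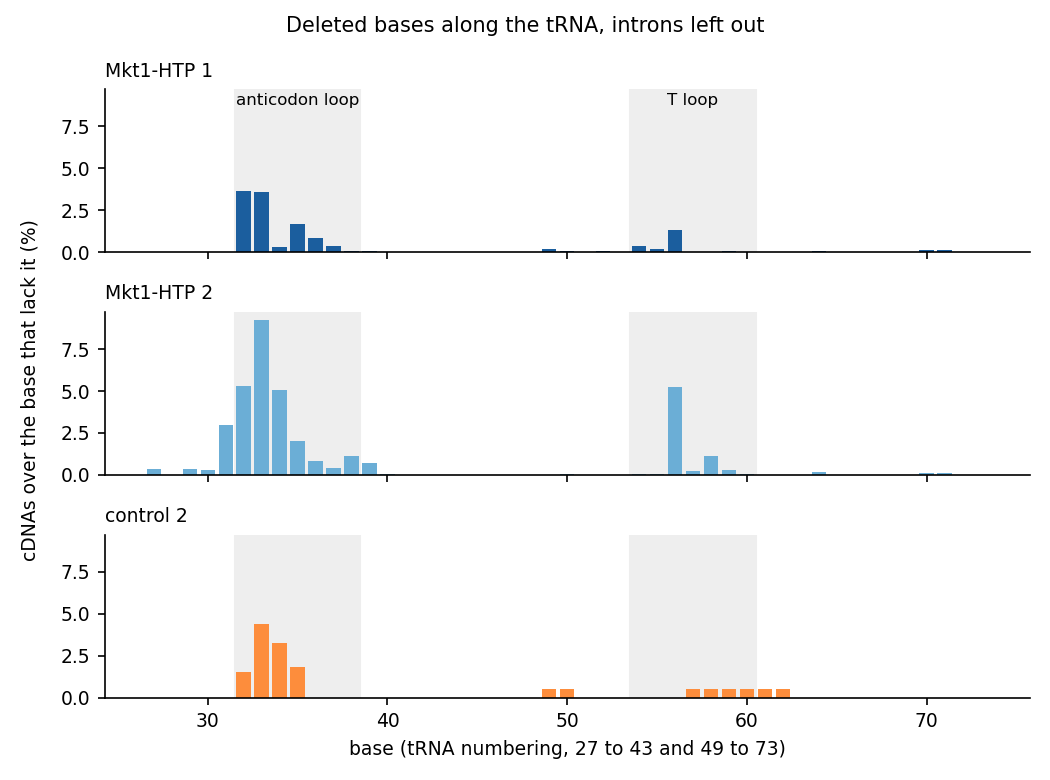
Share of the cDNAs over a base that lack it (y axis, percent, from 0) along the tRNA numbering (x axis, anticodon and T loops shaded), for Mkt1-HTP replicates 1 and 2 and control replicate 2; control replicate 1, with 28 cDNAs, is not drawn. Both Mkt1-HTP libraries peak at bases 32 and 33 and again at base 56. At base 56 the share is 1.32% and 5.23% in Mkt1-HTP replicates 1 and 2. Control replicate 2 has 0 of 191 there, which allows up to 1.57%.

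Within single tRNAs the replicates differed. Glu CTC lacked base 33 in 16 of 146 and 21 of 134 cDNAs in Mkt1-HTP, and in 1 of 1 and 2 of 8 in the control. It lacked base 32 in 16 of 125 and 20 of 126 against 1 of 1 and 2 of 8, and base 35 in 15 of 152 and 14 of 148 against 0 of 1 and 1 of 8. These shares were lower in the control only for base 35 in its 1 cDNA of replicate 1. Glu CTC was thus alike in both Mkt1-HTP libraries. The repeated CTCTC there, visible in its stretch above, means that an aligner could place 1 missing unit at more than 1 position. Asp GTC lacked base 33 in 12 of 258 and 5 of 111 cDNAs in Mkt1-HTP and in 4 of 34 in control replicate 2, so that this deletion was not lower in the control.

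His GTG lacked base 33 in 42 of 97 cDNAs of Mkt1-HTP replicate 2, 43.3% (33.9 to 53.2). It lacked it in 0 of 19 of Mkt1-HTP replicate 1 and in 0 of 13 of control replicate 2, which allow up to 15.8% and 23.1%. Base 34, the G after it, was deleted in 34 of 105, 0 of 20 and 0 of 13. Ser AGA lacked a T of its variable loop in 21 of 122 cDNAs of Mkt1-HTP replicate 2, 17.2% (11.5 to 24.9), and in 0 of 30 of replicate 1 and 0 of 5 of control replicate 2. Gly CCC went the other way, and lacked base 32 in 7 of 11 and 4 of 29. Bases 32 and 33 are both T in His GTG and in Gly CCC, so that an aligner could place 1 missing T at either. The 5 genes with the most deleted cDNAs in Mkt1-HTP were SPBTRNAMET.05, whose intron was skipped, with 23, SPBTRNAGLY.09 with 22, SPBTRNAGLU.08 with 19, SPBTRNAHIS.02 with 18 and SPATRNAGLU.03 with 15.

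The strand of every interval fitted the tRNA with 1 exception. In all, 60 intervals, 35 and 21 in Mkt1-HTP and 0 and 4 without the tag, were antisense to the annotation, and all of them were on SPBTRNAASP.05, at II:1602347-1602417. The first 30 bases of that gene are shown on both strands beside those of another Asp gene. The choice of strand decides whether any interval named for a tRNA is antisense to it.
SPBTRNAASP.05, annotated plus strand: ctctccctccgggattcgaacccgggctgc
SPBTRNAASP.05, minus strand: tctcctttagtataggggtagtacacaagc
SPATRNAASP.01, annotated plus strand: tctcctttagtataggggtagtacacaagc
The minus strand of SPBTRNAASP.05 was identical over its full length to the other 7 Asp GTC genes. With its strand taken from the sequence, as in all other values given here, 0 of the 2786 intervals were antisense. Intervals were taken by the tRNA name they carry. An antisense cDNA over a tRNA gene that lacks this name was not counted, so its presence was not tested.

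Genes that act on tRNA gave little signal of their own. Of 36 genes annotated as tRNA ligases that charge a tRNA with its amino acid, 18 had a cDNA, with 58 and 26 cDNAs in Mkt1-HTP and 0 and 9 without the tag. The most were on prs1, the proline enzyme (6 and 6 against none), frs2, a subunit of the phenylalanine enzyme (9 and 0 against none), irs1, the isoleucine enzyme (8 and 0 against none), and gus1, the glutamate enzyme (3 and 5 against none). Of 60 other genes whose product names tRNA, 11 had a cDNA, with 14 and 32 against 0 and 4. Among them trm402, a cytosine methyltransferase, had 0 and 15, and dus1, which makes the dihydrouridine of the D loop, 0 and 10. The genes trl1, which joins the pieces after splicing, and trz2, annotated as a 3′ tRNA-processing endonuclease, had 5 and 0 each. None of these genes had a control cDNA. Of the other RNA polymerase III transcripts, 5S rRNA (36 genes) had 257 and 103 cDNAs in Mkt1-HTP and 0 and 135 without the tag. The U6 RNA snu6 had 4 and 0, the signal recognition RNA srp7 4 and 3, and the RNase P RNA rrk1 none.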

How the data were processed

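CRAC cDNA was sequenced from 2 Mkt1-HTP and 2 untagged libraries, grouped and numbered by their titles. The authors trimmed adapters with Flexbar, removed PCR duplicates with pyCRAC, filtered out tRNA reads with STAR 2.7.1a, used Novoalign 3.09.02 to map to ASM294v2, and counted with pyReadCounters (Counters 1.4.4 per the file headers), keeping deletions only and with its blocks option. Each row of the deposited files is a distinct cDNA and carries a count of 1, so abundant RNAs are understated. Mapped cDNAs per the file headers numbered 544192, 483073, 27996 and 135763, against the 24468, 26899, 1743 and 8142 rows used as depth.

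Gene models, introns and sequences came from RefSeq ASM294v3, whose nuclear chromosomes are those of ASM294v2. Of 2526 gene identifiers, 2501 (99.0%) were found there. All 2786 intervals overlapped the tRNA they name, 99 named more than 1 gene, and none named more than 1 tRNA gene. Anticodons were located by a script in all 171 genes, and numbering was counted from the anticodon (bases 27 to 43) and from the last base (49 to 73). The B box letters GTTCNANNC, searched on the tRNA strand, were in 157 of 171 genes, always at the same distance from the last base.

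Features with at least 10 cDNAs over the 4 libraries were tested with edgeR 4.0.16 in R 4.3.3 (glmQLFit, glmQLFTest, no term but the group, common dispersion 1.07) with Benjamini-Hochberg adjustment over all 373 features. DESeq2 1.42.0 was an alternative. Shares were compared by an exact two-sided permutation test over libraries, with Wilson intervals (Python 3.11.15, scipy 1.17.1). The limit for a count of 0 was 3 counts. Each group has 2 libraries, which the study calls biological replicates. The permutation p-values rest on these libraries alone, while edgeR also pools variance across features. A fit without 1 library assumes that the lone library varies as much as the other group. The edgeR SE is the log2 fold change over the root of its F statistic.

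Per the labels, replicate 1 of both groups carried 1 sequencing index and replicate 2 another, which pairs them. Distances from the group means correlated within these pairs at 0.298 over the 16 tRNA families and at 0.081 over 373 features (across features, which are not independent). The labels disagree on which adapter belongs to which number but keep these pairs. The pairing was fitted as an alternative block.

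All families were described. Named genes were the 10 with the highest mean CPM, the 5 with the most deleted Mkt1-HTP cDNAs, the 5 with the most control cDNAs, and up to 4 with the most cDNAs of each list of tRNA enzymes, split by whether the product names a tRNA ligase or synthetase for an amino acid. The anticodons and single positions given were chosen after their values were seen. Members and lists were chosen with earlier results of these data known. Alternatives varied the library size, filter, tool, unit counted, assignment and libraries.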

Additional observations from a re-analysis of the deposited data

How the results depend on the processing

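The number of families called by edgeR was 0 with all 4 libraries and in 14 of its 17 alternatives, including the fit with the replicate block, in which 0 of 16 families passed (smallest adjusted p 0.605). It was 1 (glycine) with near-identical intervals counted once, where 18 of 138 features were called in all, and 0 to 6 when each library was left out in turn, with 3 without control replicate 1 (33 of 368 features) and 6 without control replicate 2 (23 of 357). Log2 fold changes turned for aspartate (-0.47 scaled to cDNAs outside rRNA, -1.27 scaled to mRNA, -0.25 with near-identical intervals counted once) and for glutamate (-0.038, -0.82 and -0.15 in the same order). They turned for threonine with no scaling (2.53), with control intervals shared with the same-numbered Mkt1-HTP library left out (0.12) and without control replicate 1 (0.38, against -0.58 without control replicate 2), and for leucine with no scaling (0.14) and without control replicate 2 (5.86, against -2.51 without control replicate 1). Scaling to cDNAs outside rRNA, scaling to mRNA, near-identical intervals counted once and no scaling left 5, 3, 7 and 16 of 16 families higher in Mkt1-HTP in place of 12. Asparagine and glycine kept their direction in every alternative run.

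Of 80 alternative values for shares and lengths, 76 did not turn in sign, though some of them moved far. The difference in the tRNA share of all cDNAs, for example, fell from 2.75 to 0.57 points with near-identical intervals counted once. In 1 of the 76 the difference in median length, 0.5 nt with all libraries, was 0 (shared control intervals left out). The difference in median length turned to -0.5 nt with the same fragment in identical gene copies counted once, and ran from -1 to 2 nt when each library was left out. The difference in the share of cDNAs with their middle nearer the 3′ than the 5′ end of the gene, -12.4 percentage points with all libraries, was 1.55 points without control replicate 1 and ran from there to -26.4 points without control replicate 2. The antisense share differed by 1.34 points as annotated and by 0 with the strand of SPBTRNAASP.05 taken from its sequence. Counting identical fragments once, the strand of that gene, and leaving out intron deletions were chosen after seeing the data. The cause of these changes was not tested. Control replicate 1, with 28 tRNA cDNAs, limits each comparison, and a count of 0 in it allows a share of up to 10.7%.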
